A study of Mus musculus with 10 samples.

Results

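The mitochondrial ribosomal proteins were taken as the protein-coding genes whose symbol begins with Mrpl or Mrps followed by a digit, which gave 78 genes of the 56748 in the deposited table. Of these, 49 carry an Mrpl symbol and 29 an Mrps symbol. RNA sequencing of whole mouse liver tissue had given 10 libraries. There were 3 libraries of liver tumours induced with Akt/Nras, 3 of tumours induced with Akt/Nras/Foxo1AAA (spelled Akt/Nras/FoxoAAA in the sample titles) and 4 of normal FVB wild-type liver. All 10 carry the genotype label WT, and in the tumour groups the DNA was delivered to hepatocytes through hydrodynamic injection into the tail vein. The labels give no age, do not say whether the normal livers received a control injection, and do not say whether the libraries of a group came from separate mice, so p-values here measure the spread between these libraries, which may be technical.

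Mitochondria translate the few proteins encoded by their own genome, all of them subunits of the respiratory chain or of ATP synthase, on a ribosome of their own. Its RNAs come from mitochondrial DNA, and all its proteins are encoded in the nucleus, made on cytosolic ribosomes and imported. The large subunit (Mrpl genes) forms peptide bonds and releases the chain towards the inner membrane, and the small subunit (Mrps genes) reads the messenger RNA. Many of its proteins descend from the bacterial ribosome and others were gained in mitochondria, so members fall into those with a bacterial counterpart and those specific to mitochondria. The numbering does not always give the place: Mrps18a and Mrps30 sit in the large subunit, and Mrps36 is a component of the alpha-ketoglutarate dehydrogenase complex. By place, 51 members belong to the large subunit, 26 to the small subunit and 1 to neither.

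The libraries held 13585055 to 21262035 reads in genes, recovered from the deposited values, and correlated within groups at 0.973 to 0.989 on the log2 scale. Between 94 and 2645 reads lay behind each tested member's value in each library. Hepatocyte markers (Alb, Ttr and 6 others) summed to 24302 to 26924 FPKM in Akt/Nras tumours, 28977 to 40772 in Akt/Nras/Foxo1AAA tumours and 67166 to 71355 in normal liver, so all 10 libraries held hepatocyte transcripts. The 6 cholangiocyte and progenitor markers, Spp1 and Sox9 among them, summed to 4107 to 5802, 2659 to 5384 and 16.1 to 24.2 FPKM in the same order of groups. The 6 macrophage markers gave 427 to 537, 303 to 593 and 85.4 to 123 FPKM, the 5 endothelial markers 24.0 to 32.0, 22.9 to 27.7 and 13.1 to 14.8 FPKM, and the 6 stellate cell and fibroblast markers 114 to 142, 70.3 to 93.4 and 13.2 to 15.0 FPKM. The 6 lymphocyte markers stayed at 0.473 to 1.36, 1.02 to 1.39 and 1.05 to 2.64 FPKM. No marker was at 0 in every library of a group. Not every marker moved with its sum. In Akt/Nras tumours 5 of 6 macrophage markers were higher than in normal liver and 1 lower (deposited scaling, limma adjusted p under 0.05). Of the 6 stellate cell and fibroblast markers 4 were higher and 1 lower. Of the 5 endothelial markers 3 were higher and 0 lower. Among all tested genes 31.1% were higher and 37.9% lower. The summed levels differ between tumours and normal liver, and their part in the results for the members was not tested. In whole tissue, fewer cells of a type and less RNA per cell cannot be told apart.

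The promoters of 5 members are shown first, each chosen for its change, its level, a motif or its position. RefSeq promoter windows (build GRCm38.p6, 250 bases before to 50 after the start) existed for 69 of the 78 members, with 75 windows in all. Capitals mark matches to the motifs searched, each on both strands: those of the factors NRF1, GABPA (an ETS factor) and YY1, and the E-box, GC box, CCAAT box and TATA box. The windows are those of the member furthest below normal liver (Mrpl14), the member with the highest mean level over all 10 libraries (Mrpl12), a member with the ETS motif (Mrpl27), the only member called higher than normal liver with the deposited scaling (Mrps6) and a member that starts next to Mrpl46 in the opposite direction (Mrps11). They lie on the + strand at chr17:45686099-45686398 (Mrpl14), chr11:120484387-120484686 (Mrpl12), chr11:94653541-94653840 (Mrpl27), chr16:92058086-92058385 (Mrps6) and chr7:78782881-78783180 (Mrps11).
Mrpl14: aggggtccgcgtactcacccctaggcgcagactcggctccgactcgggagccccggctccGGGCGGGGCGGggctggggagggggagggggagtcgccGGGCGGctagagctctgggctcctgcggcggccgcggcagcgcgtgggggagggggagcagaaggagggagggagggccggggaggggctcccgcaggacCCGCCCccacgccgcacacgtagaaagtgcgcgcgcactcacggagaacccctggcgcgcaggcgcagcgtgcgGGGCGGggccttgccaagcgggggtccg
Mrpl12: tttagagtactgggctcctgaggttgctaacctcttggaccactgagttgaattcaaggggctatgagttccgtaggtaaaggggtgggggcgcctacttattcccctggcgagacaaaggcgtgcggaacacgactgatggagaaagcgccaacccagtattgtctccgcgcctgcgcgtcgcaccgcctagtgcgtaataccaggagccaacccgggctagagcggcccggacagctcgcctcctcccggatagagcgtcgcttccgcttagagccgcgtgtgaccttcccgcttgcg
Mrpl27: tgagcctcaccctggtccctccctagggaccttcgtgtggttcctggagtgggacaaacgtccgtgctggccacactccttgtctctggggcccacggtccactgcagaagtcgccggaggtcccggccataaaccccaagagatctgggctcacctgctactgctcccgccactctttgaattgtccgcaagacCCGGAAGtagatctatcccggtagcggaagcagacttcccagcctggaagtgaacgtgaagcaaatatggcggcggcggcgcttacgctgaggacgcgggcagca
Mrps6: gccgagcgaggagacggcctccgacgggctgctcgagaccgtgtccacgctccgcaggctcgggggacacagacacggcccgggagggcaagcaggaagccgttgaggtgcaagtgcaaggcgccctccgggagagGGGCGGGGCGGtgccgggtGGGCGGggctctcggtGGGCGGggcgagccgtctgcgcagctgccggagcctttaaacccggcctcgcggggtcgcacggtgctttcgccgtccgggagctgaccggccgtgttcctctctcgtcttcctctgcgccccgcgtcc
Mrps11: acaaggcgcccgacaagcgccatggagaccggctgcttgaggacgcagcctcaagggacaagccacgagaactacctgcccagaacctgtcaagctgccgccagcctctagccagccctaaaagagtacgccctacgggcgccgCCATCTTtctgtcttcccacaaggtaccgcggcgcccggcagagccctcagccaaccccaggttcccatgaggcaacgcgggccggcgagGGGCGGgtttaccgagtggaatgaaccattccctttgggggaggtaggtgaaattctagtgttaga

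Both the Mrpl14 and the Mrps6 window are rich in GC boxes, with 5 and 4 matches, and neither holds another of the motifs. The Mrpl27 window holds 1 ETS match, the Mrps11 window 1 YY1 and 1 GC box match, and in the Mrpl12 window none of the letters searched occurred. Over all 75 windows of members, the ETS motif of GABPA, CCGGAAG, was present in 34.7%, against 17.1% of the 11493 windows of tested genes and 8.86% of all 32851 windows. NRF1, a regulator of nuclear genes for mitochondrial proteins, had its motif GCGCATGC in 10.7% of members' windows, 4.99% of those of tested genes and 2.71% of all. For AAGATGG, the motif of YY1, the shares were 17.3%, 7.09% and 6.34%. The other motifs stood closer to the background of tested genes: the GC box, GGGCGG, was in 52.0% of members' windows and 61.7% of those of tested genes, the CCAAT box in 30 of 75 windows and 37.3%, the E-box, CACGTG, in 9.33% and 10.03%, and the TATA box, TATAAA, in 6.67% and 7.80%. Of all windows, 35.7%, 37.4%, 7.15% and 13.6% held the GC box, CCAAT box, E-box and TATA box. GC boxes can overlap one another, as they do in both Mrpl14 and Mrps6. A match describes the sequence and does not show that a factor binds there. The 25 tested members with the ETS motif had a median log2 change of -0.61 in Akt/Nras tumours relative to normal liver, and the 43 with a window but without the motif had -0.66.

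In the deposited FPKM (reads per length of gene and per library size, the library sizes being those the authors used), nearly all members were lower in Akt/Nras tumours than in normal liver. The summed level of the 78 members was 1165, 1239 and 1297 FPKM in the 3 Akt/Nras libraries and 2061, 2058, 2189 and 2057 FPKM in the 4 normal livers, which gives 1234 ± 65.7 and 2091 ± 65.5 FPKM (SD, n = 3 and 4). The ranges did not overlap, and the ratio of the means was 0.590. For the summed FPKM of all genes this ratio was lower still, at 0.510. Akt/Nras/Foxo1AAA tumours lay between, at 1371, 1369 and 1331 FPKM (1357 ± 22.6, n = 3), with a ratio to normal liver of 0.649 (0.606 for all genes). Akt/Nras replicate 1 was the lowest library of its group for 42 of the 77 members above 0. Of the 77 members tested with limma on log2(FPKM + 1), where a member was called at a Benjamini-Hochberg adjusted p under 0.05 over 12439 genes, 67 were called lower and 1 higher in Akt/Nras tumours. Over all tested genes 37.9% were called lower and 31.1% higher in this comparison. The median log2 change was -0.65 for the members and -0.07 for all tested genes, and 72 of 77 members lay below that median of all genes. The remaining member, Mrpl53, was listed at 0 in all 10 libraries. By its listed coordinates Mrpl53 lies within the same-strand gene Gm42688. How reads shared by overlapping genes were assigned is unknown, and whether the overlap accounts for the 0 was not tested.

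These directions depend on how libraries are scaled. The authors' library sizes were 100% to 106% of the recovered reads in Akt/Nras libraries, 87.5% to 92.8% in Akt/Nras/Foxo1AAA libraries and 62.9% to 66.8% in normal liver, so a given share of reads was written as a higher FPKM in normal liver. Counted as a share of a library's reads, members took 0.233%, 0.254% and 0.254% in Akt/Nras tumours, 0.232%, 0.237% and 0.236% in Akt/Nras/Foxo1AAA tumours, and 0.267%, 0.247%, 0.273% and 0.258% in normal liver. By this measure Akt/Nras tumours overlapped normal liver and Akt/Nras/Foxo1AAA tumours lay just below it. With FPKM divided by the summed reads instead, a scaling chosen after the data were seen, 18 members were called lower and 16 higher in Akt/Nras tumours, against 18.6% lower and 58.8% higher among all genes. With libraries set to equal summed FPKM, 5 were called lower and 41 higher, against 13.8% and 69.2% of all genes. The median of all genes itself moved to 0.44 and 0.70 under these scalings, and the members' median to -0.01 and 0.26. A scaling by median ratios of genes kept most lower calls. With it 65 members were called lower and 2 higher in Akt/Nras tumours, against 34.2% and 34.4% of all genes. Relative to the median of all genes the members were low under the deposited scaling, where 72 of 77 lay below it. Their median was set apart from that of all genes by -0.58 on the log2 scale. Under the summed-read and equal-total scalings 70 and 70 lay below it, and the medians were -0.45 and -0.44 apart. Each scaling multiplies all genes of a library by a common factor, which largely fixes this place. The other scalings therefore add no support for it.

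**Figure D1:**
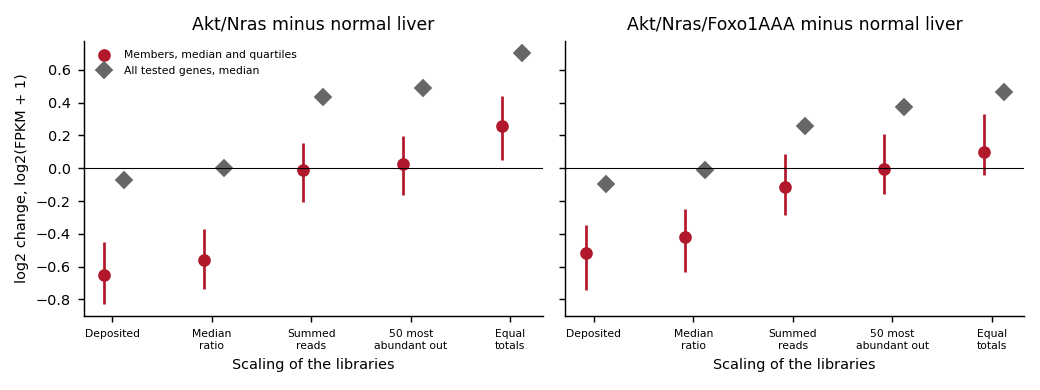
Median log2 change on the log2(FPKM + 1) scale (y axis) under 5 scalings of the libraries (x axis), for the 77 tested members (red circles, bars from the first to the third quartile) and for all 12439 tested genes (grey diamonds), in Akt/Nras tumours minus normal liver on the left and Akt/Nras/Foxo1AAA tumours minus normal liver on the right. The members' median moves from -0.65 to 0.26 on the left and lies below that of all genes under each scaling. A scaling factor shared by all genes of a library largely fixes that distance.

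Few members kept their call whatever the scaling. Under all 5 scalings tried, 5 members were called lower in Akt/Nras tumours: Mrpl12, Mrpl14, Mrpl15, Mrpl55 and Mrps5. That is 6.49% of the members, against 13.8% of all tested genes called lower under all 5. Both counts are the same as with equal totals alone, so the other scalings add nothing to them. Mrps6 was the 1 member called higher under all 5, where 31.1% of all genes were. Those higher counts are the same as under the deposited scaling alone. For Akt/Nras/Foxo1AAA tumours 11 members were called lower under all 5 scalings, adding Mrpl1, Mrpl2, Mrpl18, Mrpl27, Mrps16 and Mrps27 to the 5 above, against 13.5% of all genes. Mrps6 was again the 1 member called higher, against 26.8% of all genes. These counts too are those of equal totals alone (lower) and of the deposited scaling alone (higher). The changes given below are those of the deposited scaling.

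Among large subunit proteins with a bacterial counterpart, 27 of 30 were called lower in Akt/Nras tumours and none higher, with a median log2 change of -0.70. Of all tested genes 37.9% were called lower in this comparison, which is the background for each class below. Class counts under the other scalings are not given here. Mrpl14, a core protein of the large subunit at the interface with the small one, was lowest relative to normal liver. It had 37.0, 48.2 and 55.6 FPKM in Akt/Nras tumours, 57.6, 56.7 and 51.0 FPKM in Akt/Nras/Foxo1AAA tumours and 147, 159, 154 and 146 FPKM in normal liver. Every tumour library lay below every normal one, and the spread was wider in Akt/Nras tumours than in the other groups. Such separation was common. With each tumour group taken alone, 37.4% of all tested genes lay below all normal livers in Akt/Nras and 37.5% in Akt/Nras/Foxo1AAA tumours. Among the 77 tested members 66 and 65 did. The log2 change was -1.69 ± 0.12 (SE; limma adjusted p = 6.5e-07) in Akt/Nras and -1.45 ± 0.12 (adjusted p = 3.4e-06) in Akt/Nras/Foxo1AAA tumours. Mrpl14 overlaps the opposite-strand gene Tmem63b by 584 bases in the table. Tmem63b had 20.9 ± 3.19, 22.5 ± 2.73 and 25.7 ± 0.764 FPKM in the groups in that order, a log2 change of -0.30 in Akt/Nras tumours (adjusted p = 0.030).

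Mrpl12, which with Mrpl10 builds the stalk that recruits translation factors and which also binds the mitochondrial RNA polymerase in mammals, had the highest mean level over all 10 libraries, although Mrpl34 averaged more in both tumour groups and Mrpl14 more in normal liver. Mrpl12 had 67.7, 62.2 and 69.2 FPKM in Akt/Nras tumours, 83.9, 76.9 and 75.3 FPKM in Akt/Nras/Foxo1AAA tumours and 147, 148, 155 and 154 FPKM in normal liver. The 3 groups did not overlap, with normal liver at the top. Its log2 change was -1.18 ± 0.07 (adjusted p = 2.7e-07) in Akt/Nras and -0.93 ± 0.07 (adjusted p = 2.2e-06) in Akt/Nras/Foxo1AAA tumours. Its stalk partner Mrpl10 had 31.3 ± 2.49 FPKM in Akt/Nras tumours, 35.7 ± 1.93 FPKM in Akt/Nras/Foxo1AAA tumours and 39.6 ± 1.53 FPKM in normal liver (SD). The log2 change of Mrpl10 was -0.33 (adjusted p = 0.0032) in Akt/Nras tumours, and it was not called in Akt/Nras/Foxo1AAA tumours (-0.15, adjusted p = 0.12); the tumour groups did not differ past the threshold (adjusted p = 0.18).

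Mrpl15, a core protein of the large subunit, had 3.42, 3.86 and 3.89 FPKM in Akt/Nras tumours, 4.55, 4.79 and 4.55 FPKM in Akt/Nras/Foxo1AAA tumours and 10.4, 10.7, 10.7 and 10.8 FPKM in normal liver. No 2 groups overlapped, and the libraries of each group lay close together. The log2 change was -1.30 ± 0.07 (adjusted p = 6.9e-08) in Akt/Nras and -1.05 ± 0.07 (adjusted p = 5.1e-07) in Akt/Nras/Foxo1AAA tumours. Its listed gene length is 8487 bases and its longest annotated transcript 4203 bases, so its FPKM is low for its reads. Mrpl55, named for the large subunit, had 13.9, 12.8 and 14.7 FPKM in Akt/Nras tumours, 16.9, 15.3 and 15.2 FPKM in Akt/Nras/Foxo1AAA tumours and 33.6, 33.2, 33.7 and 30.8 FPKM in normal liver. All tumour libraries lay below all normal livers, at log2 changes of -1.19 (adjusted p = 2.7e-07) and -1.01 (adjusted p = 1.5e-06). Mrpl27, a protein next to the peptide bond-forming centre, averaged 37.1 ± 0.817 and 43.1 ± 2.12 FPKM in Akt/Nras and Akt/Nras/Foxo1AAA tumours and 82.5 ± 4.23 FPKM in normal liver, a log2 change of -1.13 in Akt/Nras tumours.

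**Figure D2:**
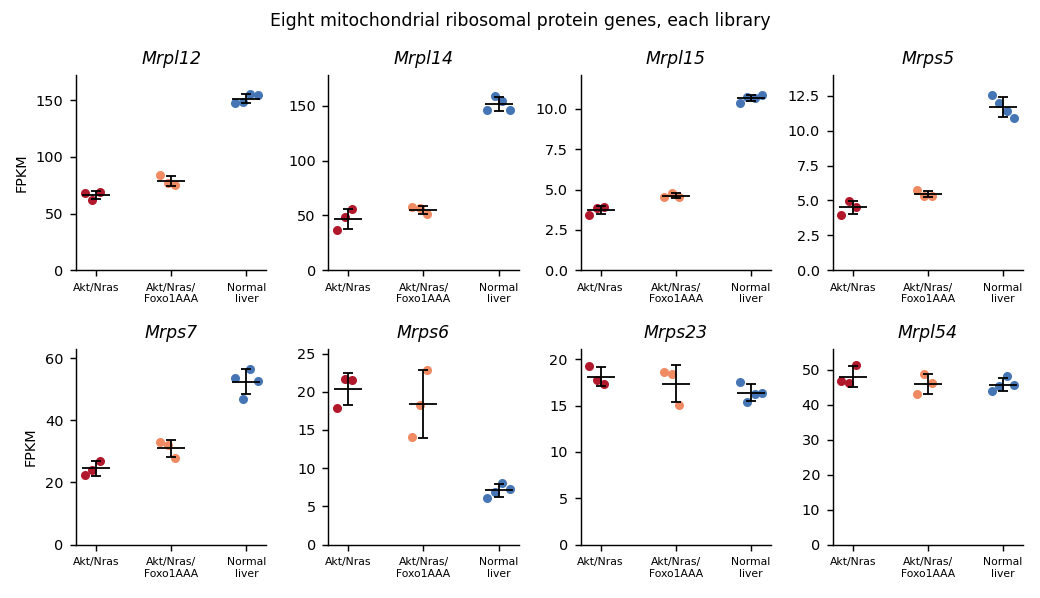
FPKM of 8 members (y axis, from 0) in each library (points) by group (x axis), with the group mean and SD in black. Mrpl12, Mrpl14, Mrpl15, Mrps5 and Mrps7 are lower in every tumour library than in any normal liver, Mrps6 is higher in every tumour library, and in Mrps23 and Mrpl54 the groups overlap.

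Mrpl2, a core protein bound to the ribosomal RNA near the peptide bond-forming centre, had 48.7, 41.3 and 44.6 FPKM in Akt/Nras tumours, 42.5, 44.7 and 41.3 FPKM in Akt/Nras/Foxo1AAA tumours and 91.8, 90.8, 92.0 and 82.7 FPKM in normal liver. The tumour groups overlapped each other and lay below all normal livers, with log2 changes of -0.98 (adjusted p = 1.6e-06) and -1.04 (adjusted p = 1.7e-06). Mrpl22, Mrpl23 and Mrpl24 line the exit tunnel, and all 3 were called lower in Akt/Nras tumours, with log2 changes of -0.67, -0.94 and -1.01. The core proteins Mrpl3, Mrpl4 and Mrpl11 were called lower too, with -0.35, -0.50 and -0.47. Mrpl34, a short member of high level, had 67.2 ± 8.68 FPKM in Akt/Nras tumours, 84.2 ± 9.26 FPKM in Akt/Nras/Foxo1AAA tumours and 106 ± 9.70 FPKM in normal liver, a log2 change of -0.66 (adjusted p = 0.00044) in Akt/Nras tumours.

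Large subunit proteins specific to mitochondria changed in the same direction, with 16 of 20 tested called lower in Akt/Nras tumours and a median of -0.49. Mrpl41 had 25.7, 26.2 and 23.2 FPKM in Akt/Nras tumours against 43.9, 36.3, 40.5 and 42.6 FPKM in normal liver, without overlap, a log2 change of -0.68 (adjusted p = 0.00019). Mrpl44 stood at -0.47 and Mrpl58, a peptidyl-tRNA hydrolase that rescues stalled ribosomes, at -0.36 (adjusted p = 0.0014). The large subunit members with a small subunit name, Mrps18a and Mrps30, were called lower as well, at -0.39 and -0.45. Mrpl45, which in mammals tethers the ribosome to the inner membrane, was not called, with 14.1, 13.2 and 17.0 FPKM in Akt/Nras tumours, 13.0, 14.8 and 13.7 FPKM in Akt/Nras/Foxo1AAA tumours and 17.6, 17.0, 14.6 and 15.0 FPKM in normal liver. Its groups overlapped, and the 95% interval of its log2 change in Akt/Nras tumours ran from -0.35 to 0.11.

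Among small subunit proteins with a bacterial counterpart, 15 of 16 were called lower in Akt/Nras tumours, with a median of -0.71, and the other one was Mrps6. Mrps5, a core protein near the entry of the messenger RNA, had 3.99, 4.97 and 4.54 FPKM in Akt/Nras tumours, 5.74, 5.32 and 5.33 FPKM in Akt/Nras/Foxo1AAA tumours and 12.6, 12.0, 11.4 and 10.9 FPKM in normal liver. The 3 groups were apart in every library. The log2 change was -1.21 ± 0.08 (adjusted p = 4.2e-07) in Akt/Nras and -0.98 ± 0.08 (adjusted p = 3.3e-06) in Akt/Nras/Foxo1AAA tumours. Mrps7, in the head of the small subunit, had 22.4, 24.1 and 27.0 FPKM in Akt/Nras tumours, 33.0, 32.1 and 27.8 FPKM in Akt/Nras/Foxo1AAA tumours and 53.8, 46.9, 56.6 and 52.7 FPKM in normal liver. Its tumour libraries all lay below normal liver, with log2 changes of -1.07 (adjusted p = 3.6e-06) and -0.74 (adjusted p = 7.5e-05). Mrps2, Mrps12 (part of the decoding centre) and Mrps16 were called lower too, at -0.79, -0.80 and -1.05 in Akt/Nras tumours.

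Of the 10 small subunit proteins specific to mitochondria, 8 were called lower in Akt/Nras tumours, with a median of -0.56. Mrps27, a pentatricopeptide repeat protein that binds RNA, was lowest of these, with 7.67, 8.92 and 8.14 FPKM in Akt/Nras tumours, 7.71, 8.74 and 7.19 FPKM in Akt/Nras/Foxo1AAA tumours and 16.4, 21.3, 18.2 and 16.6 FPKM in normal liver. The tumour groups overlapped each other but not normal liver, at log2 changes of -1.05 (adjusted p = 6.8e-06) and -1.10 (adjusted p = 7.1e-06). Mrps22, Mrps34 and Mrps35 stood at -0.55, -0.57 and -0.79 in Akt/Nras tumours, all called. The 3 paralogs Mrps18a, Mrps18b and Mrps18c had log2 changes of -0.39, -0.46 and -0.61 in Akt/Nras tumours, each with an SE of 0.10 to 0.12; their differences from one another were not tested. Mrps36, which belongs to the alpha-ketoglutarate dehydrogenase complex, was barely past the threshold at -0.45 (adjusted p = 0.042), and its Akt/Nras libraries (10.7, 8.74 and 9.94 FPKM) overlapped normal liver (15.2, 18.3, 12.6 and 10.2 FPKM).

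Mrps6, which in bacteria binds beside S18 on the platform of the small subunit, was the exception. It had 17.9, 21.7 and 21.5 FPKM in Akt/Nras tumours, 14.1, 18.2 and 22.9 FPKM in Akt/Nras/Foxo1AAA tumours and 6.13, 6.83, 8.04 and 7.33 FPKM in normal liver. All 6 tumour libraries were above all 4 normal livers, by 2.88-fold and 2.60-fold on the group means. With each tumour group taken alone, 30.9% and 27.9% of all tested genes lay above all normal livers. The log2 change was 1.40 ± 0.15 (adjusted p = 1.1e-05) in Akt/Nras and 1.24 ± 0.15 (adjusted p = 3.7e-05) in Akt/Nras/Foxo1AAA tumours. On the same strand and inside the span of Mrps6 lies Slc5a3, a sodium-coupled inositol transporter, over 29152 bases. Slc5a3 had 1.51, 4.14 and 2.02 FPKM in Akt/Nras tumours, 1.69, 1.97 and 2.25 FPKM in Akt/Nras/Foxo1AAA tumours and 0.845, 0.991, 0.804 and 0.884 FPKM in normal liver, and was called higher too (log2 change 0.85, adjusted p = 0.0033, and 0.65, adjusted p = 0.016). How the authors assigned reads shared by overlapping genes is not given in the sources used here, so the value of Mrps6 is uncertain to that extent.

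The 9 tested members not called in Akt/Nras tumours were Mrpl16, Mrpl19, Mrpl33, Mrpl43, Mrpl45, Mrpl50, Mrpl54, Mrps23 and Mrps25, most of which are named here because of their values. Mrps23, a small subunit protein specific to mitochondria, had 19.3, 17.7 and 17.4 FPKM in Akt/Nras tumours, 18.6, 18.4 and 15.1 FPKM in Akt/Nras/Foxo1AAA tumours and 17.6, 15.4, 16.3 and 16.4 FPKM in normal liver. Its groups overlapped, at a log2 change of 0.14 (adjusted p = 0.19) with a 95% interval from -0.06 to 0.34 in Akt/Nras tumours. Under each of the 4 other scalings Mrps23 was called higher there, with log2 changes of 0.23 to 1.06, and with equal totals all 9 of these members were. Mrpl54 had 46.7, 46.1 and 51.4 FPKM in Akt/Nras tumours, 42.9, 48.7 and 46.2 FPKM in Akt/Nras/Foxo1AAA tumours and 43.9, 45.3, 48.3 and 45.5 FPKM in normal liver. The groups overlapped again, and the interval of its log2 change in Akt/Nras tumours ran from -0.10 to 0.24. Mrpl16, a core protein, averaged 7.52 ± 0.796 FPKM in Akt/Nras tumours, 8.27 ± 0.965 FPKM in Akt/Nras/Foxo1AAA tumours and 8.09 ± 0.851 FPKM in normal liver. Mrpl19 and Mrpl33 were the lowest of the members above 0, with 2.57 and 2.77 FPKM on average over all libraries. The listed gene length of Mrpl33 is 7326 bases and its longest annotated transcript 478 bases, so its FPKM is low for its reads.

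**Figure D3:**
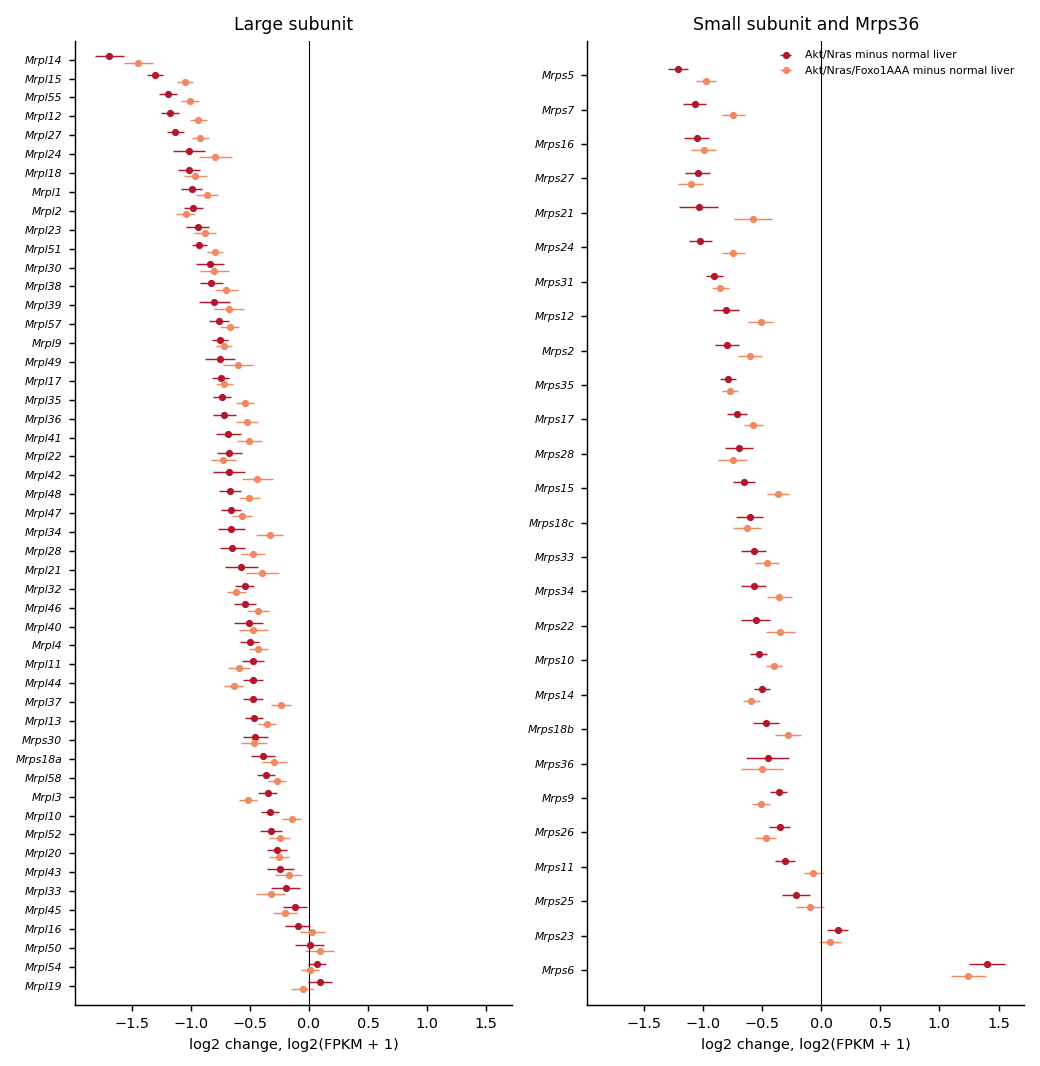
Log2 change with its SE on the log2(FPKM + 1) scale (x axis) of the 77 tested members (y axis), in Akt/Nras tumours minus normal liver (dark red) and Akt/Nras/Foxo1AAA tumours minus normal liver (orange), with the large subunit on the left and the small subunit with Mrps36 on the right. Points run from -1.69 (Mrpl14) to 1.40 (Mrps6), and most lie below 0.

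In Akt/Nras/Foxo1AAA tumours 66 of 77 members were called lower than normal liver and 1, Mrps6, higher. Over all genes 36.5% were called lower and 26.8% higher, and the medians were -0.52 for the members and -0.09 for all genes. This comparison uses the same normal livers as the one above, so both comparisons are tied to each other. With FPKM divided by summed reads 25 members were called lower and 8 higher, against 18.2% and 47.8% of all genes. With equal totals 11 were called lower and 23 higher, against 13.5% and 61.0% of all genes. With median ratios 53 were called lower and 1 higher, against 31.5% and 30.9% of all genes. By class, 27 of 30 large subunit proteins with a bacterial counterpart, 16 of 20 specific to mitochondria, 14 of 16 small subunit proteins with a bacterial counterpart and 8 of 10 specific to mitochondria were called lower, with medians of -0.60, -0.45, -0.58 and -0.41. Mrps11, a small subunit core protein, was called in Akt/Nras tumours (log2 change -0.31) and not in Akt/Nras/Foxo1AAA tumours (-0.07, adjusted p = 0.51), with 19.0, 16.8 and 16.5 FPKM there against 17.8, 17.0, 19.0 and 19.5 FPKM in normal liver. Between the tumour groups its log2 change was 0.24 (adjusted p = 0.1).

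The direct comparison of the tumour groups asks how the members differ when Foxo1AAA, a form of the transcription factor Foxo1 that Akt cannot phosphorylate, is added. Only Mrpl15 was called higher in Akt/Nras/Foxo1AAA than in Akt/Nras tumours, with a log2 change of 0.25 (adjusted p = 0.045, 95% interval 0.09 to 0.41), and 0 members were called lower. In all genes 7.93% were called higher and 4.13% lower. At an unadjusted p under 0.05 there were 14 members (18.2%), against 29.0% of all tested genes. The call of Mrpl15 was lost when any 1 of the 10 libraries was left out (without Akt/Nras/Foxo1AAA replicate 3, 1 other member was called higher). The median log2 change was 0.11 for the members and -0.01 for all genes, with 57 of 77 members above 0. Mrps21, a small subunit core protein, had the largest difference, with 49.6, 60.8 and 54.8 FPKM in Akt/Nras/Foxo1AAA tumours and 28.6, 48.6 and 44.8 FPKM in Akt/Nras tumours, a log2 change of 0.46 (adjusted p = 0.11) with an interval from 0.07 to 0.85. Every Akt/Nras/Foxo1AAA library was above every Akt/Nras library for it, although replicate 1 of the Akt/Nras tumours lay well below the others. The same held for 17 of 77 members and for 16.4% of all tested genes. The direction of the members' median turned with scaling. It was -0.06 with summed reads, where 7 members were called lower and 0 higher against 19.3% and 5.64% of all genes. With equal totals it was -0.12, and 12 were called lower and 0 higher against 26.0% and 5.27% of all genes. The median of all genes moved as well, from -0.01 to -0.15 and -0.21. Below it lay 20 of 77 members under the deposited, summed-read and equal-total scalings alike. A factor shared by all genes of a library largely fixes that place.

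Ratios within a library do not depend on its scaling. The Mrpl members summed to 2.54, 2.43 and 2.49 times the Mrps members in Akt/Nras tumours and 2.44, 2.43 and 2.41 times in Akt/Nras/Foxo1AAA tumours. In normal liver the ratios were 2.63, 2.55, 2.65 and 2.63, above every tumour library by a small margin. Sums follow the members of highest level. Mrpl12 and Mrpl14 averaged 66.4 and 46.9 FPKM in Akt/Nras tumours and 151 and 152 FPKM in normal liver. All Mrpl members summed to 880 and 1513 FPKM in these groups. The ratio without Mrpl12 and Mrpl14 is not given here. Mrps symbols include Mrps18a, Mrps30 and Mrps36, so the ratio is not that of the subunits. Relative to the nuclear-encoded subunits of the respiratory chain, whose mitochondrial partners this ribosome makes, the members summed to 20.6%, 21.7% and 21.1% in Akt/Nras tumours, 20.5%, 20.8% and 22.1% in Akt/Nras/Foxo1AAA tumours and 16.1%, 14.7%, 15.2% and 15.5% in normal liver. The tumour groups overlapped each other and stood above all normal livers. Relative to the 13 proteins encoded in the mitochondrial genome the members summed to 6.76% ± 0.179, 5.35% ± 0.895 and 2.74% ± 0.419 in Akt/Nras tumours, Akt/Nras/Foxo1AAA tumours and normal liver (SD). Against the cytosolic ribosomal proteins the order was different, with 8.18%, 10.5% and 9.43% in Akt/Nras tumours, 14.3%, 12.5% and 11.7% in Akt/Nras/Foxo1AAA tumours and 13.5%, 15.7%, 14.2% and 14.5% in normal liver. Here Akt/Nras tumours lay below both other groups, which overlapped each other. The labels name both polyA capture and rRNA removal for the libraries, and the part of this step in the mitochondrially encoded values was not tested.

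**Figure D4:**
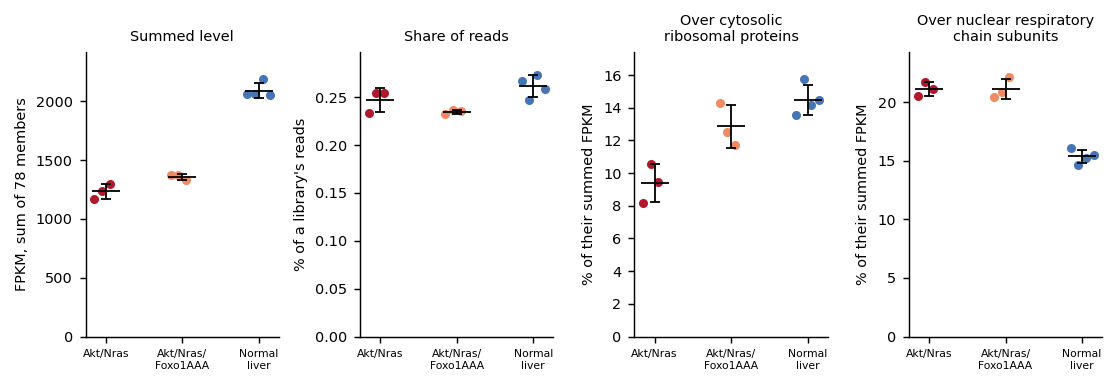
Summed FPKM of the 78 members, their share of a library's reads, and their summed FPKM as a percentage of that of cytosolic ribosomal proteins and of nuclear respiratory chain subunits (y axes, from 0), in each library (points) by group (x axis), with the mean and SD in black. The summed level is below normal liver in all 6 tumour libraries, as is the summed FPKM of all genes. The share over respiratory chain subunits is above normal liver in all 6.

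Other genes of mitochondrial gene expression were mostly called lower with the deposited scaling, where 37.9% of all genes were called lower in Akt/Nras and 36.5% in Akt/Nras/Foxo1AAA tumours. The 5 other proteins of this ribosome in the list, among them Dap3 and Aurkaip1, were all called lower in both tumour groups, with medians of -0.70 in Akt/Nras and -0.51 in Akt/Nras/Foxo1AAA tumours; Aurkaip1 had 22.1 ± 1.31 FPKM, 26.9 ± 0.784 FPKM and 52.4 ± 3.05 FPKM in Akt/Nras tumours, Akt/Nras/Foxo1AAA tumours and normal liver. Of 28 tested genes for assembly of the ribosome and modification of its RNA, 20 and 17 were called lower in Akt/Nras and Akt/Nras/Foxo1AAA tumours (medians -0.49 and -0.50), with Rpusd3, a pseudouridine synthase family member, at log2 changes of -1.20 and -0.99 and C1qbp at -1.15 and -1.26. Of 15 translation factors, 14 and 13 were called lower (medians -0.79 and -0.56), led in Akt/Nras tumours by Taco1, which is needed to make the cytochrome oxidase subunit COX1, at -1.22. Of 19 genes for charging mitochondrial tRNAs, 14 and 15 were called lower (medians -0.57 and -0.39), with Gatb of the glutamyl-tRNA amidotransferase at -1.64 and -1.09. Of 19 genes for transcription and RNA processing, 15 and 16 were called lower and 1, the phosphodiesterase gene Pde12, higher in each tumour group (medians -0.65 and -0.63). Hsd17b10, a subunit of mitochondrial RNase P, stood at -1.38 and -1.16. For replication of mitochondrial DNA, 8 of 10 were called lower in each tumour group (medians -0.56 and -0.40), with the polymerase subunit Polg2 at -1.47 and -1.49. For protein import, 24 and 25 of 29 were called lower and 1, Timm17a, higher (medians -0.67 and -0.57), with the small Tim chaperone gene Timm9 at -1.50 in each.

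Genes of the respiratory chain were called lower as well. Of 83 tested nuclear-encoded subunits, 78 were called lower in each tumour group, with medians of -1.22 and -1.09. The exception called higher in Akt/Nras tumours was Ndufa4l2 at 1.40. Sdhb of complex II fell to 51.5 ± 5.01 FPKM in Akt/Nras tumours and 65.3 ± 3.73 FPKM in Akt/Nras/Foxo1AAA tumours, against 193 ± 17.4 FPKM in normal liver. Of the 13 mitochondrially encoded proteins 12 were called lower in each (medians -2.25 and -1.68). Of the cytosolic ribosomal proteins, 16 of 82 were called lower and 2 higher in Akt/Nras tumours (median -0.12), and 56 lower and 1 higher in Akt/Nras/Foxo1AAA tumours (median -0.43). Of 10 tested regulators of mitochondrial genes, 5 were called lower in each tumour group, with 2 higher in Akt/Nras and 1 higher in Akt/Nras/Foxo1AAA tumours (medians -0.20 and -0.23). The coactivator Ppargc1b had 0.147 ± 0.0594 FPKM in Akt/Nras tumours, 0.395 ± 0.141 FPKM in Akt/Nras/Foxo1AAA tumours and 2.11 ± 0.176 FPKM in normal liver, and was called lower in both. The ETS factor gene Gabpa was called lower at -0.73 and -0.76, its partner gene Gabpb1 higher at 0.34 and 0.32, and Nrf1 higher in Akt/Nras tumours at 0.41 (adjusted p = 0.0024). In Akt/Nras/Foxo1AAA tumours Nrf1 stood at 0.16 (adjusted p = 0.17), and Nrf1 was not called in the direct comparison (adjusted p = 0.12). With equal totals the medians of most of these lists turned positive in Akt/Nras tumours, for example 0.25 for ribosome assembly and 0.06 for translation factors. Those of the nuclear respiratory chain subunits (-0.26) and of the mitochondrially encoded proteins (-1.29) stayed negative. The median of all genes was then 0.70, with 13.8% of all genes called lower and 69.2% higher in Akt/Nras tumours. There 1 of 28 assembly genes was called lower and 14 higher, and 3 of 29 import genes lower and 14 higher. Of the 5 other proteins of this ribosome 1 was called lower and 2 higher, with a median of 0.17. Of the tRNA charging genes 2 were called lower and 7 higher, of the transcription and RNA processing genes 2 and 7, of the replication genes 1 and 3, of the regulators 1 and 7, and of the translation factors 3 and 1. In Akt/Nras/Foxo1AAA tumours 4 assembly genes were called lower and 10 higher with equal totals, and 6 import genes lower and 11 higher. The 5 other proteins of this ribosome had 1 lower and 0 higher, with a median of 0.11. Of all genes 13.5% were called lower and 61.0% higher there. The cytosolic ribosomal proteins turned in both tumour groups, with 2 lower and 75 higher in Akt/Nras tumours (median 0.83) and 2 lower and 38 higher in Akt/Nras/Foxo1AAA tumours (median 0.28). With summed reads 7 of these 82 were called lower and 12 higher in Akt/Nras/Foxo1AAA tumours (median 0.033), against 18.2% and 47.8% of all genes.

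**Figure D5:**
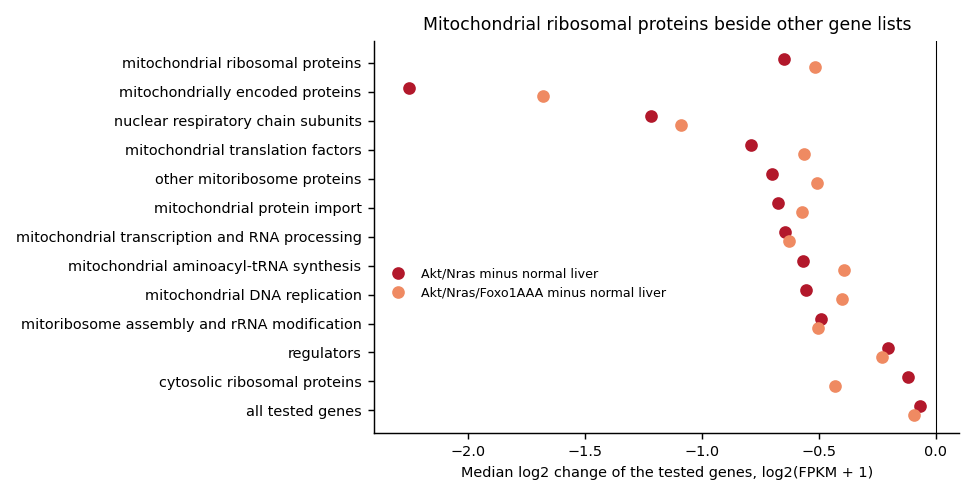
Median log2 change on the log2(FPKM + 1) scale (x axis) of the tested genes of each list (y axis), in Akt/Nras tumours minus normal liver (dark red) and Akt/Nras/Foxo1AAA tumours minus normal liver (orange), with the deposited scaling. The mitochondrial ribosomal proteins, at -0.65 and -0.52, lie between the nuclear respiratory chain subunits, at -1.22 and -1.09, and all tested genes, at -0.07 and -0.09.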

How the data were processed

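The authors deposited 1 table of FPKM with 1 column per library, per the file headers; FastQC 0.11.7 and the build GRCm38 appear in the submitters' processing notes, and which aligner, counter and gene annotation were used is not given in the sources used here. Per the labels, the authors describe the library step as polyA capture or rRNA removal. Gene coordinates in the table differ from GRCm38, in a build without a name, and were not converted. Multiplied by gene length and divided by what 1 read is worth in its library, 100% of the FPKM values under 1000 reads gave whole reads within 0.02 reads. Listed lengths were 1.36 times the longest GENCODE M21 transcript at the median (highest 15.3), so FPKM of genes with many alternative exons are low. The 12439 genes that reached 1 FPKM in 3 or more of the 10 libraries entered limma 3.58.1 in R 4.3.3 (lmFit, contrasts.fit, eBayes with trend) on log2(FPKM + 1), all libraries in 1 fit, two-sided, with Benjamini-Hochberg adjustment; log2 changes on this scale understate the change of low genes. Equal replicate numbers did not pair the libraries (correlations of deviations from -0.17 to 0.112). The fit was tested on simulated data. Members, gene lists, markers and motifs were chosen with earlier results of these data known; the list of respiratory chain subunits was taken by symbol, as was that of cytosolic ribosomal proteins without the S6 kinases. Named with values were a panel of 29 members by role, the 5 called members with the largest increase and decrease per comparison, the 3 highest and lowest members, and from the lists up to 2 called genes in each direction; Mrpl54, Mrps11 and Mrps21 and the uncalled members were added for their values. Other scalings, filters, pseudocounts, fits and left-out libraries were tried as alternatives. Among the members, 37 overlap another gene above 0 and 5 processed pseudogenes of members were above 0 FPKM, so reads shared with them are uncertain. Mrpl48-ps, at 8.19, 8.69 and 14.6 FPKM in Akt/Nras tumours, Akt/Nras/Foxo1AAA tumours and normal liver, exceeded Mrpl48 in each group. Mrpl48 has a listed length of 8152 bases and a longest annotated transcript of 4285 bases. The FPKM therefore do not show that Mrpl48-ps took more reads.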

Additional observations from a re-analysis of the deposited data

Results flagged for a closer look

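For 4 values in the normal livers 1 library stood apart from the other 3, by Dixon's ratio of the gap to the range. The summed FPKM of the members was higher in replicate 3 than in the other normal livers (ratio 0.9702). Mrpl10 was also highest in replicate 3 (ratio 0.8836). Mrpl2 (ratio 0.8698) and Mrpl55 (ratio 0.8355) were lowest in replicate 4. Chance flags about 1 in 20 groups, and 44 were examined. In each case the libraries of Akt/Nras tumours remained below all 4 normal livers.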

How the results depend on the processing

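The scaling of the libraries moved the results most, as its construction sets the zero of every log2 change. When the 50 most abundant genes were dropped before scaling, 18 members were called lower and 19 higher in Akt/Nras tumours (median 0.027), 15 lower and 16 higher in Akt/Nras/Foxo1AAA tumours (median -0.0043), and 0 higher between tumour groups (median 0.016). Of all genes 17.6% were then called lower and 60.2% higher in Akt/Nras tumours, and 15.4% and 55.0% in Akt/Nras/Foxo1AAA tumours. With summed reads the calls were 18 lower and 16 higher (median -0.011), 25 and 8 (median -0.11), and 7 and 0 (median -0.062). With equal totals they were 5 and 41 (median 0.26), 11 and 23 (median 0.098), and 12 and 0 (median -0.12). With median ratios 65 members were called lower and 2 higher in Akt/Nras tumours, against 34.2% and 34.4% of all genes. In Akt/Nras/Foxo1AAA tumours 53 were called lower and 1 higher, against 31.5% and 30.9% of all genes. The medians were -0.56 and -0.42 in Akt/Nras and Akt/Nras/Foxo1AAA tumours. Changes in Akt/Nras tumours that turned positive with the 50 genes left out were 0.36 for Mrpl10, 0.18 for Mrpl11, 0.22 for Mrpl3, 0.17 for Mrpl4, 0.0056 for Mrpl22, 0.045 for Mrpl34, 0.0067 for Mrpl41, 0.19 for Mrpl44, 0.30 for Mrpl58, 0.033 for Mrps22, 0.11 for Mrps34, 0.26 for Mrps18a, 0.16 for Mrps18b, 0.043 for Mrps18c, 0.10 for Mrps30, 0.20 for Mrps36, 0.55 for Mrpl45. With summed reads these were 0.31 for Mrpl10, 0.13 for Mrpl11, 0.18 for Mrpl3, 0.13 for Mrpl4, 0.00093 for Mrpl34, 0.15 for Mrpl44, 0.25 for Mrpl58, 0.064 for Mrps34, 0.21 for Mrps18a, 0.11 for Mrps18b, 0.0023 for Mrps18c, 0.062 for Mrps30, 0.15 for Mrps36, 0.50 for Mrpl45. With equal totals they were 0.62 for Mrpl10, 0.42 for Mrpl11, 0.43 for Mrpl3, 0.42 for Mrpl4, 0.26 for Mrpl22, 0.31 for Mrpl34, 0.26 for Mrpl41, 0.44 for Mrpl44, 0.54 for Mrpl58, 0.11 for Mrps2, 0.13 for Mrps12, 0.25 for Mrps22, 0.36 for Mrps34, 0.0060 for Mrps35, 0.49 for Mrps18a, 0.39 for Mrps18b, 0.29 for Mrps18c, 0.31 for Mrps30, 0.44 for Mrps36, 0.80 for Mrpl45. Mrps23, not called with the deposited scaling, was called higher in Akt/Nras tumours with median ratios (0.23), summed reads (0.76), the 50 genes left out (0.81) and equal totals (1.06). In Akt/Nras/Foxo1AAA tumours the change of Mrpl10 was 0.44, 0.31 and 0.56 and that of Mrps11 0.50, 0.37 and 0.62 under the 3 scalings, and that of Mrps11 was 0.038 with median ratios. Array weights gave a median of -0.57 in Akt/Nras tumours, and 7 higher and 1 lower between tumour groups, against 15.99% and 13.5% of all genes; a pseudocount of 0.1 gave a median of -0.59 in Akt/Nras/Foxo1AAA tumours; the causes of these shifts were not tested. The call of Mrpl15 between tumour groups was lost (0 higher) without the filter and with only the 2 groups compared. With the replicate block, which pairs libraries that share only a number, it was lost as well (0 higher), and no other count of called members moved by more than 1.5 times. Leaving out 1 library of the groups compared at a time gave 66 to 67 members lower in Akt/Nras tumours, 57 to 65 in Akt/Nras/Foxo1AAA tumours and 0 to 1 higher between tumour groups. The ratio of summed member levels to normal liver was 1.16 and 1.07 as a share of summed FPKM, and 0.966 and 0.984 without the 50 most abundant genes, in Akt/Nras and Akt/Nras/Foxo1AAA tumours. In windows from 50 before to 50 after the start, ETS motifs were in 26.7% of members' promoter windows, 10.7% of those of tested genes and 5.21% of all.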
